A study of Mus musculus with 6 samples.

Results

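The genes described here encode fibrillar and interstitial collagen chains. Accessible chromatin at 10 of them (Col1a1, Col1a2, Col2a1, Col3a1, Col5a1, Col5a2, Col5a3, Col11a1, Col24a1 and Col27a1) was read from a pooled ATAC-seq peak call of mouse kidney. ATAC-seq uses a transposase that cuts open chromatin, so that a pile of cut sites marks a region where DNA was accessible. For each gene, all distinct intervals of the peak list that overlapped the stretch from 3 kb upstream of the gene start to the gene end were taken, on GRCm39 with the GENCODE M39 annotation. This gave 146 of the 279569 intervals in the list, and no interval belonged to more than 1 of the 10 genes. Of the 21738 protein-coding genes annotated there, the 10 were chosen by name.

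Nuclei came from the kidney cortex of 3 WT libraries, labelled with batches 1 and 2, and 3 libraries with a tubule-specific Acly knockout (Acly cKO), labelled with batches 4 and 5. The treatment label of all 6 was Control. By the study's methods, the knockout mice carried floxed Acly alleles and a Ksp-Cre transgene, which acts in tubular epithelium, and littermates with floxed alleles and no Cre served as controls. Collagen-producing stromal cells are not the target of this Cre. The deposited peak list is, by its peak names, a single call on pooled libraries, and its columns belong to no library. Which libraries were pooled is not stated in the files, and WT libraries from an earlier deposit, which the study also used, may be among them. WT and Acly cKO kidneys could therefore not be compared, no value below carries a replicate error or a p-value, and the depth behind each value is unknown. In a pool of whole tissue, fewer cells of a type and less accessible chromatin per cell cannot be told apart.

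Fibrillar collagens are made as procollagen chains that wind into a triple helix, are trimmed outside the cell and assemble into banded fibrils. Type I and type III fibrils give connective tissue its tensile strength, and their build-up between tubules is the hallmark of kidney fibrosis. Type II is the main collagen of cartilage, types V and XI sit inside fibrils and set their width, and types XXIV and XXVII are later described relatives of the family. The triple helix repeats a glycine at regular intervals, and exons of these genes tend to hold whole repeats.

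Coding exon lengths of the 10 genes followed this pattern. Of the 583 coding exons of their canonical transcripts, 82.9% had a length that is a multiple of 9 bp, the length of DNA that encodes 1 Gly-X-Y repeat, against 14.5% of the 197791 coding exons of all protein-coding genes. A length of exactly 54 bp was found in 274 of the 583 (47.0%), against 0.668% of all. The genes ranged from 16819 bp for Col1a1 to 259534 bp for Col24a1, and the first intron from 1.47 kb in Col1a1 to 60.0 kb in Col5a2.

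The 200 bases before the annotated start of a gene were read from GRCm39 for all 10. The 5 shown here are those of the major fibrillar genes Col1a1, Col2a1 and Col3a1, of Col5a1, which had the most CpG-rich start of the 10, and of Col5a2, in which, as in Col24a1, none of the 3 promoter elements was found. Each runs 5′ to 3′ on the strand of its gene and ends at the base before the start. Capitals mark TATAAA (the TATA box), CCAAT (the box bound by NF-Y) and GGGCGG (the GC box bound by Sp1) on either strand.
Col1a1 (chr11:94826850-94827049, + strand): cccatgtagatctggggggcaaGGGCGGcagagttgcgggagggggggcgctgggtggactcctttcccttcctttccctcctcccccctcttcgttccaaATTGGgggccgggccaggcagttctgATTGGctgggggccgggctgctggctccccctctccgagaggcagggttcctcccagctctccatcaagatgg
Col2a1 (chr15:97902690-97902889, - strand): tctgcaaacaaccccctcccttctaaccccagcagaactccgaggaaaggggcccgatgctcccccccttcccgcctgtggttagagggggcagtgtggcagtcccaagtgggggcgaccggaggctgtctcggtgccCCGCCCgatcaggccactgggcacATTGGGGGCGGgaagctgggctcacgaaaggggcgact
Col3a1 (chr1:45350498-45350697, + strand): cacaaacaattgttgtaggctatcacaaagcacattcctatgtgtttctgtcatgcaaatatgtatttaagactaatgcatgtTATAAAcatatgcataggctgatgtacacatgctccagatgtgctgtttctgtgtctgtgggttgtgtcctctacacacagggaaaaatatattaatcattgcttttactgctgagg
Col5a1 (chr2:27776197-27776396, + strand): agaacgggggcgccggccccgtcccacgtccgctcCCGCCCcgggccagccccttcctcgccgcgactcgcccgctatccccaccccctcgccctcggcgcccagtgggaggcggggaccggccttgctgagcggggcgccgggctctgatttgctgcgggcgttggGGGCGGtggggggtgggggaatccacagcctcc
Col5a2 (chr1:45542443-45542642, - strand): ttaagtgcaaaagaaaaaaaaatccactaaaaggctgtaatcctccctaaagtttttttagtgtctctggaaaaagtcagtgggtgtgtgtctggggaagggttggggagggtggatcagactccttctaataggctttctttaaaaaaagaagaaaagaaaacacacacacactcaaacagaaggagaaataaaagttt

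The window of Col1a1 held CCAAT, read on the opposite strand as ATTGG, at positions -99 and -73, counted in bases back from the start, and a GC box at -178. In Col2a1, a CCAAT box at -38 ran directly into a GC box at -33. Among the 10 windows, only that of Col3a1 held TATAAA, at -117, and it had no GC box and no CCAAT box. The search took a match at any position and stopped at the annotated start. Letters past that start were not counted, so a gene without a match here may still have a TATA box. Col5a1 had GC boxes at -165 and -33 and no CCAAT box. Over the 10 windows, the GC box was present in 7 (Col1a1, Col1a2, Col2a1, Col5a1, Col5a3, Col11a1 and Col27a1), against 34.8% of the 21738 promoters of the same length. The canonical start of Col1a2 lies 679 bp inside the gene, and its window overlaps exons of coding transcripts. That of Col27a1 lies 1431 bp inside, with no such exon over the window. CCAAT was present in 4 (Col1a1, Col2a1, Col5a3 and Col11a1), against 32.3% of all. TATAAA was present in 1, against 9.57%. The letters TGANTCA, read by AP-1, were in none of the 10 and in 4.94% of all promoters. Letters found in a window are a description of the sequence and not a measured binding site.

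All 10 canonical starts lay inside an interval, against 71.2% of protein-coding genes (15479 of 21738). The intervals over these starts were weak beside those of most other genes. Fold enrichment is the signal at a summit over the background set by the peak caller, and each interval is given here by its highest summit. It was 16.5 over the start of Col27a1, 12.6 at Col5a1, 10.9 at Col1a1, 9.49 at Col11a1, 7.33 at Col1a2, 6.35 at Col5a3, 5.37 at Col5a2, 3.80 at Col24a1, 3.47 at Col2a1 and 2.95 at Col3a1. The median of the 10 was 6.84, while the median over the 15479 covered starts of all protein-coding genes was 31.8. Col27a1, the strongest of the 10, stood at percentile 26.5 of those covered starts and Col3a1 at percentile 4.50. With a single pooled value per gene, neighbours in this order cannot be set against a spread.

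The highest summit of a wide interval need not lie at the start itself. At 7 of the 10 genes it lay within 500 bp of the start, and at Col1a1, Col11a1 and Col27a1 it lay further into the gene. At Col1a1, the summit with the fold enrichment of 10.9 was 928 bp into the gene, in intron 1, and the summit nearest the start, at 9 bp, had a fold enrichment of 3.67. At Col11a1 the highest summit was at 1488 bp and the nearest, at -36 bp, had 9.10. At Col27a1 the corresponding values were 16.5 at 1008 bp and 15.0 at -104 bp. Col2a1 had 3.47 at 321 bp and 2.23 at -48 bp. Taking the summit nearest the start at every gene, the median of the 10 was 5.86 and that of all covered starts 27.9.

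**Figure D1:**
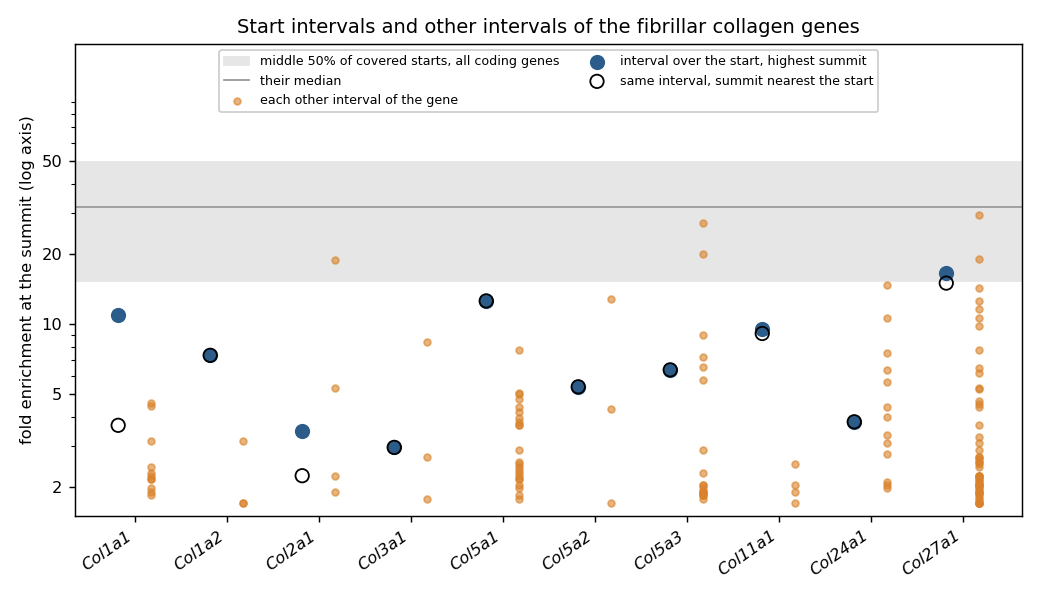
Fold enrichment at the summit (log axis) for each of the 10 genes, with the interval over the canonical start in blue, the summit of that interval nearest the start as an open circle, and each other interval of the gene in orange; the grey band holds the middle 50% of covered starts of all protein-coding genes and the line their median. Of the 10 blue points, only that of Col27a1 (16.5) lies within the band, and the open circle of Col1a1 (3.67) lies well under its blue point (10.9).

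Starts of protein-coding genes differ with their CpG content, which was measured as the observed over expected CpG ratio of the 500 bp on either side of the start. Of the 10 starts, 2 reached 0.6, namely Col5a1 (0.80) and Col27a1 (0.75), against 47.7% of all protein-coding promoters. The ratio was 0.57 at Col2a1, 0.46 at Col11a1, 0.40 at Col5a3, 0.36 at Col1a2, 0.33 at Col5a2, 0.30 at Col1a1, 0.26 at Col24a1 and 0.18 at Col3a1. Among all genes, starts with a ratio of at least 0.6 were covered in 97.7% of cases with a median fold enrichment of 39.0, and starts under 0.6 in 47.1% of cases with a median of 15.8. All 8 CpG-poor members were thus covered in a class in which most starts were not. Within the covered starts of its own class, Col1a1 stood at percentile 40.6, Col11a1 at 36.9, Col1a2 at 30.3, Col5a3 at 27.1, Col5a2 at 23.6, Col24a1 at 16.6, Col2a1 at 14.7 and Col3a1 at 11.3. The CpG-rich pair stood at percentile 9.37 (Col5a1) and 13.4 (Col27a1) of the CpG-rich starts. Every one of the 10 was below the median of its class. These percentiles use the highest summit of each interval, which at Col1a1 lay 928 bp into the gene.

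**Figure D2:**
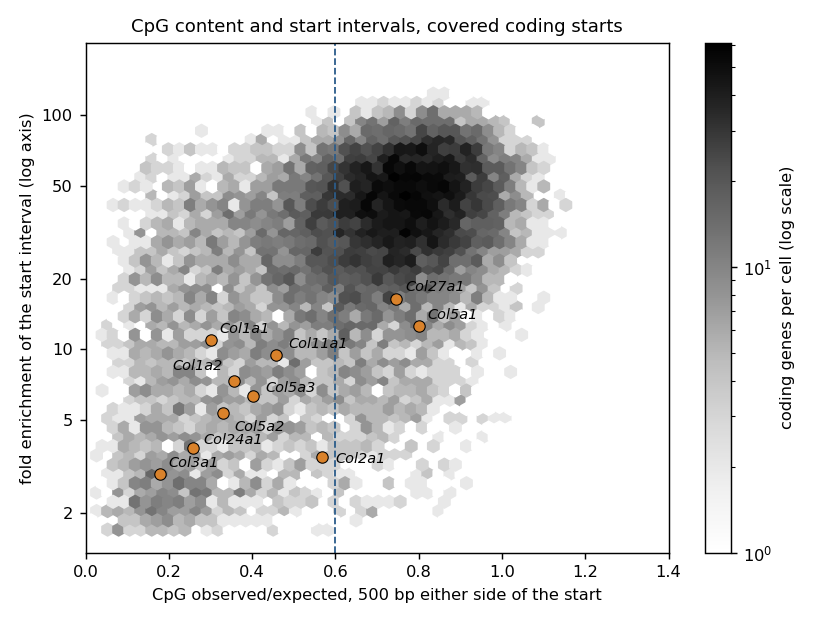
Fold enrichment of the interval over the canonical start (log axis) against the observed over expected CpG ratio of 500 bp on either side, with all covered protein-coding starts as grey cells (darker cells hold more genes), the 10 genes as orange points and the ratio of 0.6 as a dashed line. Of the 10 genes, 8 lie left of the line, with Col3a1 lowest at 2.95 and a ratio of 0.18, and Col5a1 and Col27a1 lie right of it at 12.6 and 16.5.

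The intervals as a set were like those of the whole list. Their median fold enrichment was 2.52, with a range of 1.70 to 29.3, against 2.55 over all intervals, and their median width was 484 bp against 434 bp. A q under 1e-05 was reached by 79 of the 146 (54.1%), against 54.9% of all intervals. For a fold enrichment of 5 or more, the count was 36 (24.7%), against 24.5% of all. These shares are near the background. The 2 strength columns of the list hold the same order, since each of the 280 fold enrichments under 20 occurs with a single q, and only fold enrichments are given from here on.

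The genes differed widely from each other in how much of their length lay in intervals. Col1a1, the gene of the alpha1 chain of type I collagen, had 12 intervals, which covered 55.3% of its region. At 6.06 intervals per 10 kb it stood at percentile 96.6 of all protein-coding genes. Most of these were weak, since 5 of the 12 had a q under 1e-05 and 1 reached a fold enrichment of 5. Col27a1 had 54 intervals, 4.36 per 10 kb, covering 49.4% of its region, and Col5a3 had 20, 4.16 per 10 kb, covering 32.5%. Counting fold enrichments of 5 or more, the order turned, with 1.46 per 10 kb at Col5a3, 1.05 at Col27a1, 0.621 at Col2a1 and 0.505 at Col1a1. Counting all intervals, the 7 genes other than Col1a1, Col27a1 and Col5a3 lay under the median of all protein-coding genes, 1.86 per 10 kb. They had 1.55 at Col2a1, 1.54 at Col5a1, 1.01 at Col1a2, 0.831 at Col3a1, 0.533 at Col24a1, 0.301 at Col5a2 and 0.259 at Col11a1. Among the 11682 genes with a region at least as long as that of Col1a1, the shortest of the 10, the median was 1.78. Col11a1 and Col5a2 stood at percentiles 18.9 and 19.6 of all protein-coding genes. Their longest stretches with no interval were 72.9 kb and 68.7 kb, against 1.68 kb in Col1a1 and 4.91 kb in Col27a1.

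**Figure D3:**
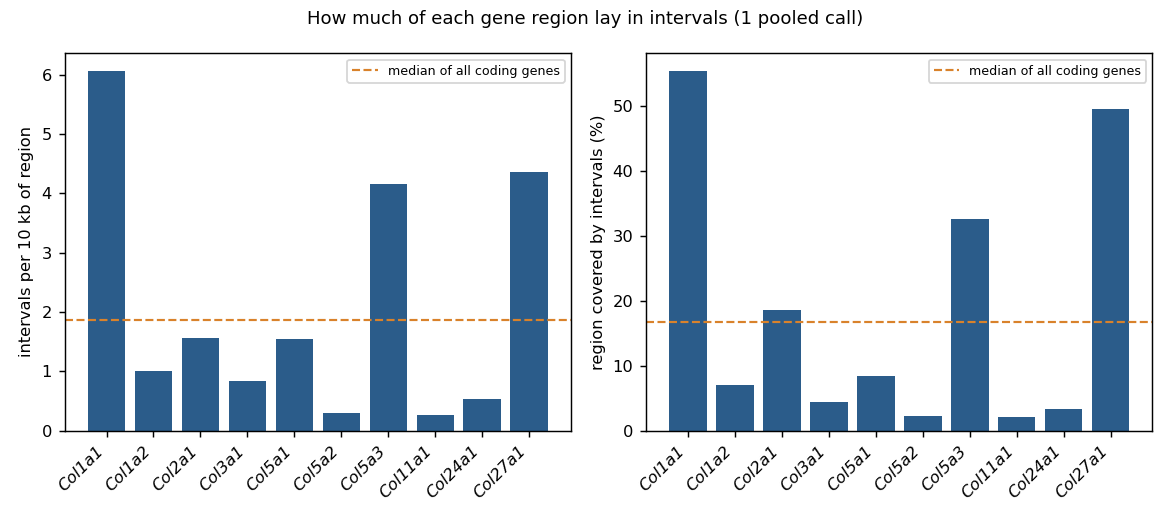
Number of intervals per 10 kb (left) and percent of the region covered by intervals (right) for each of the 10 genes, from 3 kb upstream to the gene end, with the median of all protein-coding genes as a dashed line. Col1a1, Col5a3 and Col27a1 stand above the line in both panels and Col2a1 (18.6% covered) only in the right panel, while Col5a2 and Col11a1 have 2.24% and 2.01% of their regions covered.

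Introns after the first held most of the summits and also most of the length. On the canonical transcript, 107 of the 146 highest summits (73.3%) lay in an intron after the first, which made up 76.2% of the length of the regions. The first intron held 16 (11.0%) on 14.4% of the length. The Wilson 95% interval of that share, 6.86% to 17.1%, covers counting error only. It takes the 146 as independent, although 54 of them were at Col27a1. Exons held 17 (11.6%) on 6.31% of the length, and 5 lay upstream. The remaining summit lay past the end of the canonical transcript of Col3a1. Of the 17 exonic summits, 6 were in exon 1. Within 5 kb of the canonical start lay 23 summits, while 63 were over 50 kb away, 14 of them at a fold enrichment of 5 or more.

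At 6 of the 10 genes the strongest interval did not cover the canonical start (Col2a1, Col3a1, Col5a2, Col5a3, Col24a1 and Col27a1). This was so for 21.7% of all protein-coding genes with a covered start. Among the 5350 CpG-poor genes with a covered start the share was 36.4%, and among the 2897 of these with a region at least as long as that of Col1a1 it was 42.0%. Only canonical starts were counted here, and the strongest interval of Col27a1 holds the annotated start of another of its transcripts. The median region length of the 10 was 86.1 kb, against 28.2 kb for all genes with a covered start. The ratio of the strongest other interval to the start interval was 5.45 at Col2a1, 4.28 at Col5a3, 3.86 at Col24a1, 2.84 at Col3a1, 2.38 at Col5a2 and 1.78 at Col27a1. It was 0.615 at Col5a1, 0.429 at Col1a2, 0.419 at Col1a1 and 0.262 at Col11a1.

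**Figure D4:**
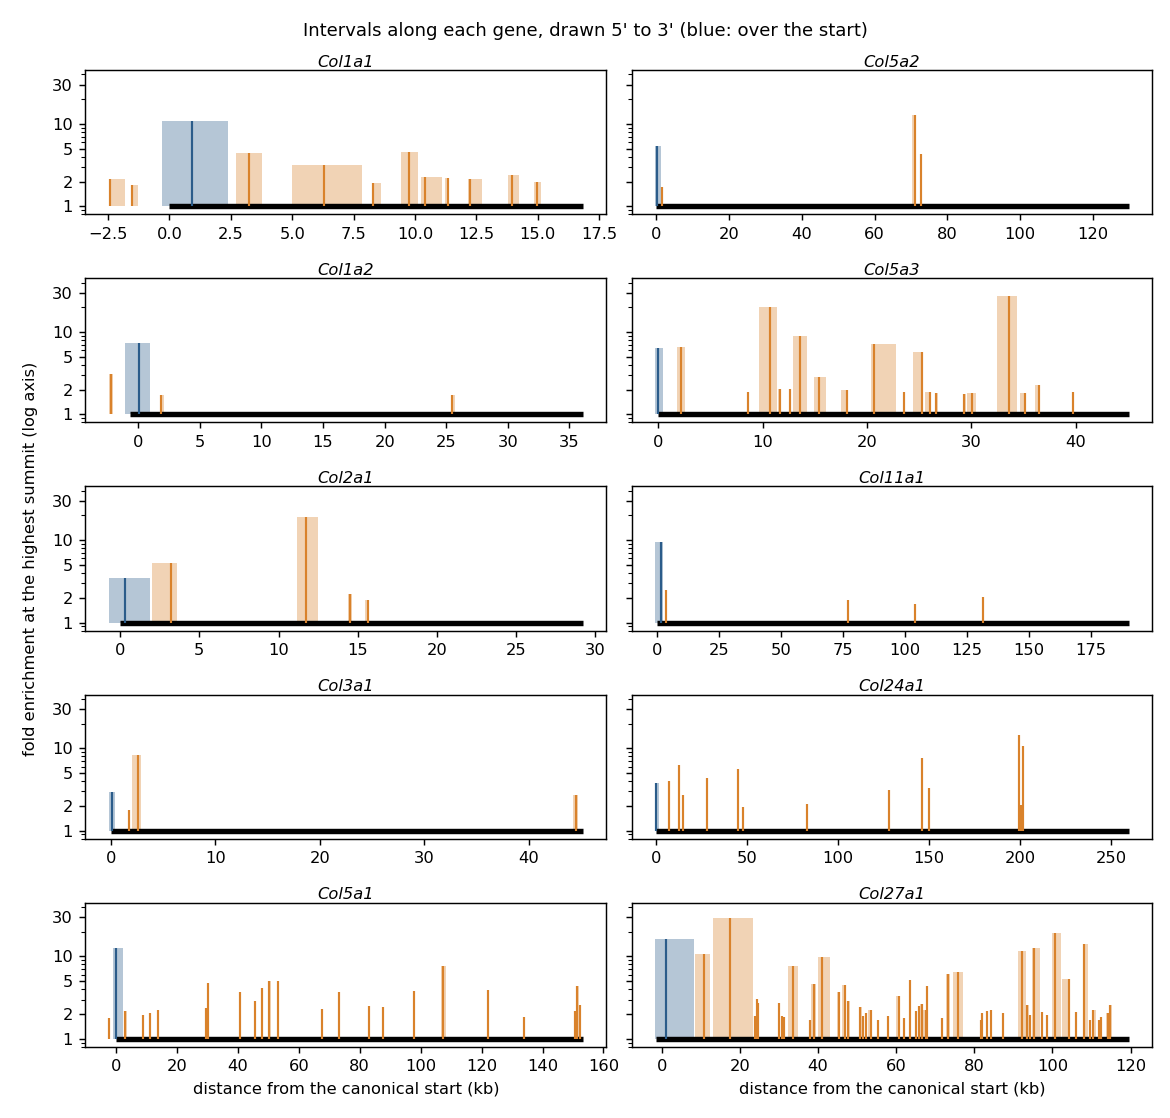
Intervals along each of the 10 genes, drawn 5′ to 3′ by distance from the canonical start (kb), with the gene as a black bar and each interval as a box whose height is the fold enrichment of its highest summit (log axis) and whose line marks that summit; the interval over the start is blue. Intervals cover 55.3% of the region of Col1a1 and 49.4% of that of Col27a1, whereas Col5a2 and Col11a1 are almost empty, and the strongest interval of Col24a1 (14.7) lies 199.0 kb from its start.

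Sequence under 5 of the summits is shown, as 101 bases centred on the highest summit of an interval and 5′ to 3′ on the strand of the gene. They are the highest summits of Col1a1, Col3a1 and Col5a2, and intervals of Col5a3 and Col24a1 in which the AP-1 letters stood close to the summit. Capitals mark TGANTCA (AP-1) and the core of the CTCF motif, on either strand. CTCF is a factor that anchors chromatin loops, and its core was searched as CCA, any 2 bases, AG, any 2 bases and GG.
Col1a1 intron 1 (chr11:94827928-94828028, + strand): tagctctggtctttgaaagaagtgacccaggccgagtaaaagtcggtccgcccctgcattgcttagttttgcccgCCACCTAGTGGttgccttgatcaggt
Col3a1 intron 1 (chr1:45353259-45353359, + strand): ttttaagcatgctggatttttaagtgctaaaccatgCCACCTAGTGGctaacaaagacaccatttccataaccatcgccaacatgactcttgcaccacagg
Col5a2 intron 6 (chr1:45471219-45471319, - strand): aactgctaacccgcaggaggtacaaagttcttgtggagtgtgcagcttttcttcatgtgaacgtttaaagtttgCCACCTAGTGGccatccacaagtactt
Col5a3 intron 1 (chr9:20724224-20724324, - strand): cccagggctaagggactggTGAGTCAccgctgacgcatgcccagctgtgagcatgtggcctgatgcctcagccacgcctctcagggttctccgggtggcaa
Col24a1 intron 47 (chr3:145199546-145199646, + strand): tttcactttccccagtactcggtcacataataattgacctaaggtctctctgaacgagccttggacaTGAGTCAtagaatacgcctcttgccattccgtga

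The windows of Col1a1, Col3a1 and Col5a2 shared a run of 12 letters, GCCACCTAGTGG, read on the strand of each gene, and each window was taken at the highest summit of its gene. The CTCF letters were added to the search after these sequences had been read, so a match at these summits follows from that choice. In windows of 201 bases around the highest summit, the CTCF core was present in 17 of the 146 member intervals (11.6%), against 8.23% of all intervals. Among intervals at a fold enrichment of 5 or more, it was present in 6 of 36 for the members and in 12.9% of all. The run of 12 letters was present in these 3 of the 146 member windows in 435 of all 279567 (0.156%), and in 297 of the 68570 at a fold enrichment of 5 or more (0.433%), as all 3 were. The run was picked because these windows share it. AP-1 letters were present in 21 of the 146 (14.4%), against 12.4% of all. RUNX letters (TGTGGT) were in 19.2% against 16.4%, TEAD letters (GGAATG) in 11.6% against 13.9%, and SOX letters (AACAAT) in 4 of the 146 (2.74%) against 7.24%.

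Col1a1 and Col1a2 encode the chains of type I collagen, the main collagen of scar tissue, and are expressed together in fibroblasts. The intervals over their starts, of 2684 bp (chr11:94826760-94829443) and 2032 bp (chr6:4504442-4506473), had highest summits of 10.9 and 7.33. At Col1a1 that summit lay 928 bp into the gene, and the summit nearest the start, at 9 bp, had 3.67. At Col1a2 the highest summit was also the nearest, at 71 bp. Beyond the start, the pair differed. The remaining 11 intervals of Col1a1 lay upstream of the gene and along its body. The strongest were in intron 32 (4.58, 9.74 kb from the start), intron 6 (4.45) and intron 19 (3.14), the last 2885 bp wide with 13 summits. The one in intron 6 holds the annotated start of another Col1a1 transcript. Col1a2 had 3 others, of which 1 lay upstream of the gene, at -2178 bp from its canonical start (3.14) and the others, in intron 1 and exon 35, were at 1.70, the lowest value among the member intervals. A stretch of 23.4 kb of Col1a2 held no interval.

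Col3a1 encodes the single chain of type III collagen, which accompanies type I in distensible tissues. Its start interval (chr1:45350519-45351056) was the weakest of the 10, with a fold enrichment of 2.95 and a single summit at 60 bp. The same value of 2.95 was found over the start of Alb, the gene of the liver protein albumin. Among markers of stroma, Pdgfra was lower, at 2.68, and Acta2, Pdgfrb, Tagln and Gata3 were higher. A stronger interval of Col3a1 stood in its intron 1 (chr1:45352695-45353580, 8.38, 2.61 kb from the start), where the 12 letters given above lie. Its other 2 intervals, of 1.77 and 2.68, lay in intron 1 and past the end of the canonical transcript, and 41.3 kb of the gene held none.

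Col5a2, the alpha2 chain of type V collagen, is the tail-to-tail neighbour of Col3a1, with 16713 bp between the gene ends. From the start of one to the start of the other, over 191.7 kb, the pair shared the same layout of a weak start and a single intronic interval well above it. Col5a2 had 5.37 at its start (chr1:45541225-45542722) and 12.8 in intron 6 (chr1:45471148-45472054), 71.2 kb into the gene, next to a second interval of 4.32 in the same intron. The remaining interval, in intron 1, was at 1.70. Together the pair had 8 intervals, and 3 more lay between the genes.

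Col2a1 encodes the chain of type II collagen of cartilage, a tissue that the kidney lacks. Its start interval (chr15:97900837-97903391) was at 3.47. The strongest interval lay in intron 16 (chr15:97890225-97891551, 11.7 kb from the start) with a fold enrichment of 18.9, and it holds the annotated start of a long non-coding RNA, Gm46536. An interval in intron 1 of the canonical transcript (chr15:97899073-97900688, 3224 bp from the start) was at 5.30. It also holds the annotated start of another Col2a1 transcript. Intron 1 of Col2a1 is known for a chondrocyte enhancer bound by SOX9. AACAAT was not found in the 201 bases around the summit, and 7.24% of all such windows held it. The rest of the interval was not searched, and whether the interval is that enhancer was not tested. The last 2 intervals, in introns 18 and 19, were at 2.23 and 1.90.

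Markers of cartilage were measured beside it. Starts of Matn3 (19.7), Hapln1 (6.35) and Acan (2.10) were covered and that of Col9a1 was not. Of genes of other organs, the start of Alb was covered, at 2.95, and the starts of Ins2, Krt14 and Myh6 were not. RNA was not measured in these libraries.

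Type V and type XI chains start the assembly of fibrils. Col5a1 had the strongest start after Col27a1 of the 10, 12.6 with the summit 94 bp upstream (chr2:27775535-27778819), in an interval that also holds the start of the long non-coding RNA 2810430I11Rik. Its other 23 intervals were spread over 156.1 kb, with 7.73 in intron 32, 107.2 kb from the start, and 5.04 and 4.98 in intron 4. The start interval of Col11a1 (chr3:113823270-113826304) was at 9.49, against 10.9 at Col1a1. In both genes only the start interval reached a fold enrichment of 5. They differed in the weaker intervals. Col1a1 had 11 others in a region of 19.8 kb, while the rest of the 193.2 kb of Col11a1 held only 4. The 4 of Col11a1 were of 2.49, 2.03, 1.90 and 1.70, in introns 1, 42, 14 and 31.

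Col5a3, a type V chain with a narrower distribution in tissues, had stronger intervals inside the gene than at its start. The start interval was at 6.35 (chr9:20725944-20726690, a single summit at 22 bp), and 6 of its 19 other intervals reached 5. The strongest lay in intron 45 (chr9:20692015-20693982, 27.2, 33.6 kb from the start), followed by intron 8 (19.9), intron 13 (8.97) and intron 27 (7.20). An interval in intron 1, 2144 bp from the start, was at 6.55 and is the one shown above with TGAGTCA near its summit.

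Col24a1 and Col27a1 encode the minor fibrillar collagens with interrupted triple helices. The start of Col24a1 (chr3:144998023-145000082) was at 3.80. Its 13 other intervals included 5 of at least 5, and the strongest pair lay deep in the gene, in intron 46 (chr3:145196775-145197590, 14.7) and intron 47 (chr3:145199446-145199821, 10.6), 199031 and 201363 bp from the start, followed by intron 28 (7.53).

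Col27a1 held 54 of the 146 intervals (37.0%) and 36.1% of the 36 that reached a fold enrichment of 5. The interval over its start (chr4:63132065-63141991) was 9927 bp wide, and with the next 2, of 10.6 in intron 3 and 29.3 in intron 4 (10162 bp wide), it filled 95.8% of a span of 25027 bp with 64 summits. The interval in intron 4 was the strongest and the widest of all 146. It also holds the annotated start of another Col27a1 transcript. Near the end of the gene stood intervals of 19.1 in intron 41, 14.3 in intron 50, 12.5 in intron 37 and 11.6 in intron 36. Of the 10 strongest member intervals 4 were at Col27a1, and 2 of the 10 covered a canonical start. Without Col27a1, the median fold enrichment of the other 92 intervals was 2.72.

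Col27a1 also hosts a microRNA. The hairpin of Mir455 (chr4:63175088-63175169) lay inside an interval of intron 10 (chr4:63173617-63176737) with a fold enrichment of 9.76, and the summit of that interval nearest the hairpin, 110 bp away, had 5.57. Its mature sequences are given by RefSeq as follows, with the seed (bases 2 to 8) in capitals.
mmu-miR-455-5p: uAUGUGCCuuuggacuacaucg
mmu-miR-455-3p: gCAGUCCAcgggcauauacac
The seeds of the arms differ, so each arm pairs with its own set of targets. Mature microRNA was not measured in these libraries.

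Including this hairpin, 7 of the 146 intervals held the annotated start of another gene, and none of these was protein-coding. They were 4 at the starts of Col1a2, Col2a1, Col3a1 and Col5a1, and 1 each upstream of Col1a2, in intron 16 of Col2a1 and in intron 10 of Col27a1. The same share over all intervals was not computed, so the count is a description only.

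Genes whose products handle collagen were measured in the same way. Of those that modify, fold and secrete procollagen, 18 of 18 starts were covered with a median fold enrichment of 32.1, led by Colgalt1 (73.1), which glycosylates hydroxylysine, and P4ha1 (68.9), a subunit of prolyl 4-hydroxylase. Of those that cleave and cross-link it, 12 of 13 were covered with a median of 12.6, led by Loxl3 (22.7), a lysyl oxidase relative, and Bmp1 (19.0), which removes the C-propeptide. The start of Loxl2 was not covered. Of collagen receptors, 9 of 10 were covered with a median of 6.02, from Itga1 (64.3) and Itgb1 (57.0), the integrin chains, to Gp6, a platelet receptor with none.

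Among proteins that decorate fibrils, 6 of 10 starts were covered with a median of 9.92, led by Comp (16.9) and Sparc (12.1), and those of Postn, Matn1, Dcn and Lum were not. Of breakdown enzymes and their inhibitors, 8 of 9 were covered with a median of 7.89, led by Timp3 (35.0) and Mmp14 (15.8), and Mmp8 had none. Of the transcription factors known for collagen genes, 10 of 12 were covered with a median of 29.7, led by Nfya (88.8) and Sp1 (87.2), which read the CCAAT and GC boxes, while Sox6 and Sp7 had none. Other factors of cartilage, bone and tendon in this list were covered, with 41.8 at Scx, 17.6 at Sox9, 13.4 at Runx2 and 7.33 at Sox5. All protein-coding genes stood at 71.2% covered and 31.8.

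The other 34 collagen genes gave a mixed picture. Their starts were covered in 25 of 34 with a median of 8.18. Those of type IV, the collagen of basement membranes, were among the strongest, with 33.7 over the shared start interval of Col4a3 and Col4a4, 31.6 over that of Col4a1 and Col4a2 and 24.2 over that of Col4a5 and Col4a6. Between these values lay Col18a1 (29.1) and Col16a1 (25.3). The type IV pairs stand head to head and encode the chains of the glomerular and tubular basement membranes. Each of the 10 fibrillar starts was lower than each of the 6 type IV starts. Col11a2, a further chain of type XI that was not among the 10, had 7.01. Starts of 9 were not covered, among them Col9a1, Col19a1 and Col6a3.

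**Figure D5:**
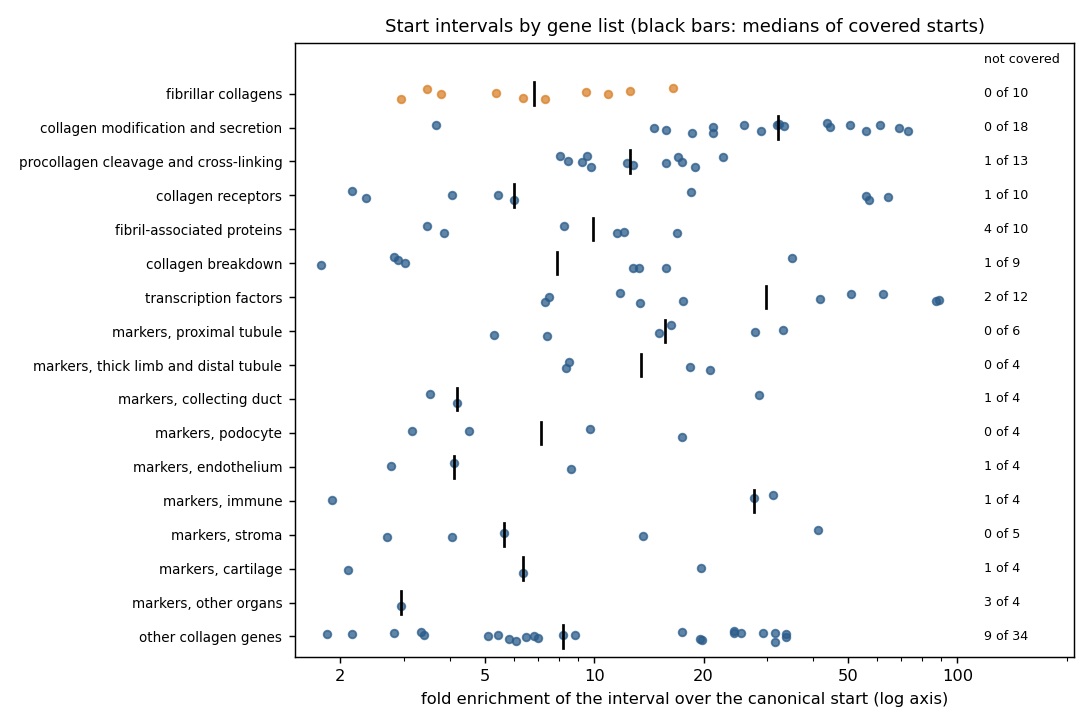
Fold enrichment of the interval over the canonical start (log axis) for every covered gene of each list, with black bars at the medians and, at the right, how many genes of the list had no interval over the start. The 10 fibrillar collagens (orange) lie between 2.95 and 16.5 with none uncovered, while genes of collagen modification and secretion have a median of 32.1.

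Marker genes of kidney cell types were measured in the same way, where 71.2% of all protein-coding starts were covered. Markers of cartilage, which the kidney lacks, were covered in 3 of 4 with a median of 6.35. Coverage of so few starts therefore does not identify a tissue. Starts were covered in 6 of 6 proximal tubule markers (median 15.7, highest Lrp2 at 33.1), in 4 of 4 of the thick limb and distal tubule (13.5, Umod at 20.8), in 4 of 4 of podocytes (7.14), in 3 of 4 of the collecting duct (4.19), in 3 of 4 of endothelium (4.13) and in 3 of 4 of immune cells. The immune starts were uneven, with 31.2 at Cd68 and 27.6 at Csf1r, genes of macrophages, 1.90 at Ptprc, which all leukocytes use, and no interval at Cd3e of T cells. Markers of stroma, the cells that make fibrillar collagen, were covered in 5 of 5 with a median of 5.63, from Pdgfra at 2.68 and Acta2 at 4.06 to Pdgfrb at 5.63, Tagln at 13.6 and Gata3 at 41.4. Gata3 is also used by collecting duct and distal tubule cells, so that its value is not particular to stroma. The part that the mix of cell types has in the values of the collagen genes was not tested.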

How the data were processed

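Reads were trimmed by the authors with fastp, aligned to mm39 with Bowtie2 2.3.4.3, freed of duplicates and of reads without a unique position, and called with MACS3 3.0.0 on the pool. Blacklisted regions were removed with bedtools 2.29.1. The deposited list gives, for each summit, the fold enrichment over background (a linear ratio), the -log10 q-value written by the authors' caller, and a score that the authors' caller derived from it. The files do not name the pooled libraries, so it is not known whether WT libraries from an earlier deposit, which the study also used, entered the pool.

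Rows were collapsed to distinct intervals, and each took its values from the summit with the smallest q. In GRCm39 coordinates 74.4% of gene starts lay in an interval, against 20.5% in GRCm38 coordinates, over 19124 genes. All 10 members are named, each with its start interval and its 3 strongest others, and from each list the 2 strongest starts and up to 3 without an interval. Names outside this rule were chosen after their values were seen, as was 1 of the 12 motifs. Members and lists were chosen with earlier results of these data known. The sequence under 1 summit is not reported here. The scripts were tested on simulated data. Python 3.11.15, numpy 2.4.6 and pandas 2.3.3 were used.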

Additional observations from a re-analysis of the deposited data

How the results depend on the processing

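The number of intervals at the 10 genes, 146, was 79 for a q under 1e-05, 36 for a 5-fold minimum and 405 when every summit was counted. It was 125 at a q under 0.01, 142 without the upstream 3 kb and 163 with 10 kb on either side. The median fold enrichment of 2.52 was 4.58 for a q under 1e-05 and 8.68 for the 5-fold minimum, since both settings drop weak intervals, and stayed between 2.42 and 2.88 under the others. All 10 starts stayed covered with a q under 1e-05 and 7 with the 5-fold minimum. The highest summit of an interval lay within 500 bp of the start at 7. The share of summits in the first intron ranged from 10.1% to 16.7%. Of 70 counts for single genes under these alternatives, 29 moved by over 1.5 times, among them Col1a1, which went from 12 to 1 with the 5-fold minimum, against 20 to 7 at Col5a3 and 54 to 13 at Col27a1. No paired analysis was possible because the only peak call is pooled and no column belongs to a library. For the same reason no library could be left out, WT and Acly cKO could not be compared, and the depth limit of each value is unknown.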
